A study of Homo sapiens with 6 samples.

Results

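Molecular apocrine marker genes were examined in SKBR3 cells depleted of NDRG1. Of 10 listed genes, SERHL2, ALOX15B, PIP, CLCA2, FGFR4, TFAP2B, UGT2B28, HPD, KYNU and KMO, 8 were measured by a probe with a gene symbol, among 14812 genes in all. ALOX15B and UGT2B28 had no named probe and were not analysed here. The genes were picked by name as apocrine markers with the difference between shNDRG1 and shGFP control arrays already known, and the value of SERHL2 in that contrast was part of the choice. All differences between the groups are therefore given for the members as a description, with no test. Of the 8 measured members, SERHL2 alone lay below the control in every batch, and for the other 7, FGFR4 among them, the difference was smaller than the range of the arrays inside a group.

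Molecular apocrine breast cancers lack the estrogen receptor but express many genes of luminal and sweat gland type. HER2 is often amplified in them, and SKBR3, an established line from a breast adenocarcinoma with HER2 amplification and no estrogen receptor, is commonly used as a model of this class. The forkhead factor FOXA1 opens chromatin in such cells, and secreted proteins, steroid and amino acid metabolism and lipid oxidation make up much of the program.

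RNA came from SKBR3 cells stably expressing 1 shRNA against NDRG1 (shNDRG1, 3 arrays) or an shRNA against GFP (shGFP control, 3 arrays), grown in DMEM with fetal bovine serum. Cells were transduced with lentivirus and selected with puromycin, so both groups carry an integrated vector. The array methods name a vector control, whereas the labels name GFP. The array titles carry a minus sign or the word minus before DFO, the iron chelator deferoxamine, and no chelator was compared. The methods call the replicates independent biological replicates, and each of 3 numbered batches holds 1 array of each group. The labels do not say what a batch is.

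Values are baseline-transformed log2 expression, in which the authors subtracted a constant from each probe, so 0 is not absence and no level can be compared between genes. Nor can the identity of the line be checked from marker levels. The logarithm base is not stated and is read as 2. In these bulk samples, fewer cells with a transcript and less transcript per cell cannot be told apart. NDRG1, the targeted gene, was -0.77, -0.74 and -1.09 on shNDRG1 arrays of batches 1, 2 and 3, against 0.022, 0.42 and -0.022 on shGFP control arrays. Every shNDRG1 array thus lay below every control array, and the log2 difference was -1.01 (standard error 0.16). Along the leading principal component, with 72.0% of the variance, the array of batch 2 was the highest in both groups, and the shNDRG1 array of batch 3 lay between it and batch 1. Over all 14812 genes, 0% passed an adjusted p of 0.05 in limma, with or without the batch as a block, and 4.26% had an unadjusted p under 0.05 (9.45% with the block).

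**Figure D1:**
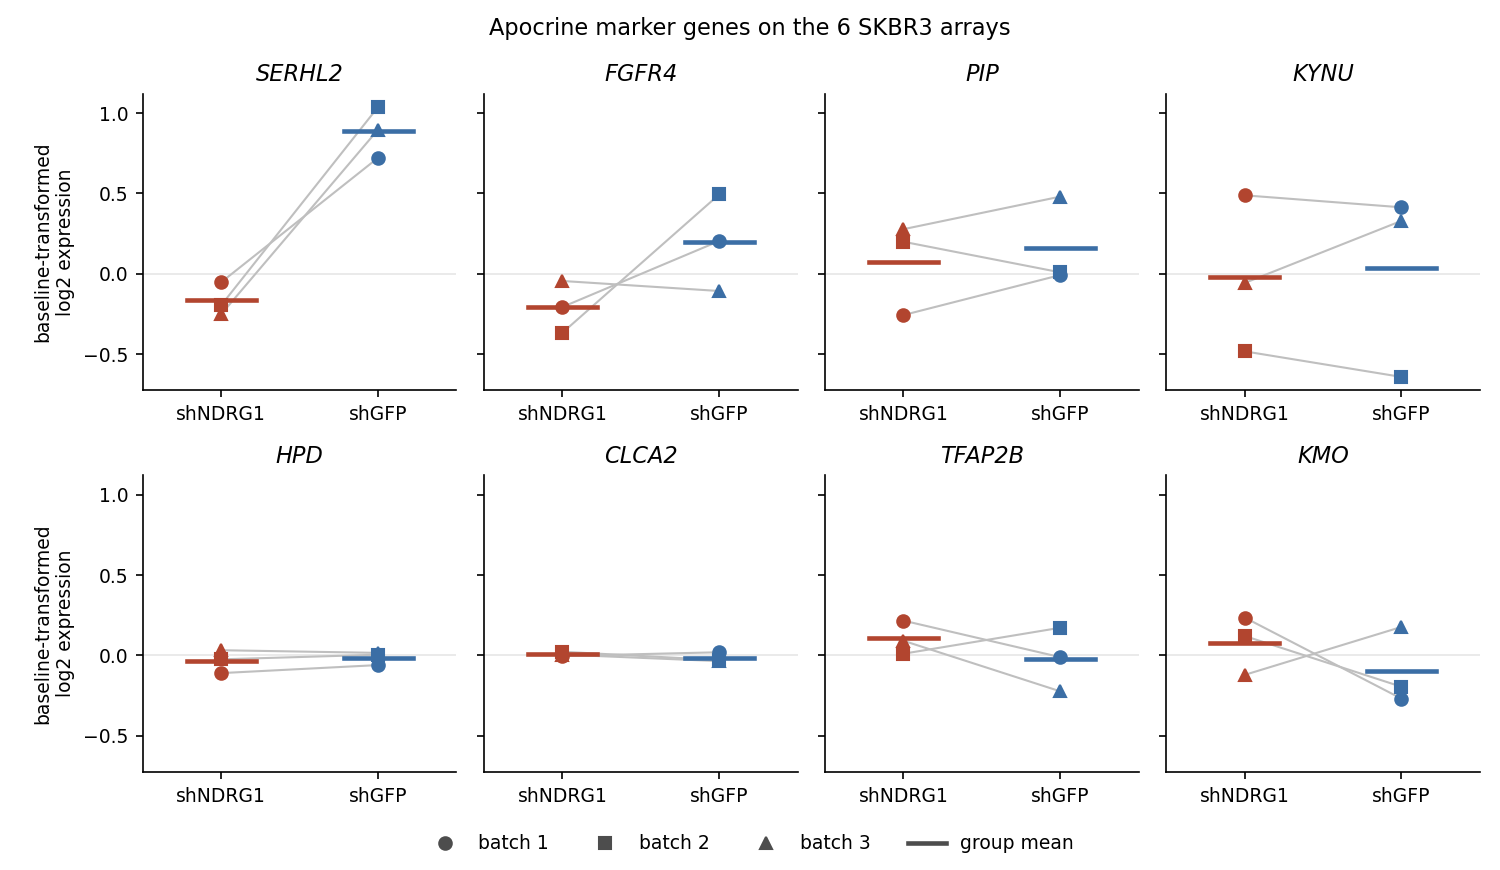
Baseline-transformed log2 expression of the 8 measured apocrine marker genes (vertical axis, common to all panels) on shNDRG1 and shGFP control arrays, with marker shape giving the batch, grey lines joining arrays of a batch and bars giving the group mean (n = 3). SERHL2 separates the groups, with shNDRG1 arrays from -0.25 to -0.053 and control arrays from 0.72 to 1.04, whereas the groups overlap for the other 7.

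SERHL2 encodes a serine hydrolase-like protein of the alpha/beta hydrolase fold and is a transcript enriched in apocrine breast tumours. It measured -0.053, -0.20 and -0.25 in the shNDRG1 cells (batches 1, 2 and 3), against 0.72, 1.04 and 0.90 in shGFP control cells. All 3 shNDRG1 arrays lay below all 3 control arrays, and the gap between the groups was wider than the spread inside either. The mean was -0.17 ± 0.10 in shNDRG1 cells and 0.89 ± 0.16 in control cells (SD, n = 3 each), a log2 difference of -1.05 (standard error 0.10), or 2.07-fold lower. The difference was -0.77, -1.23 and -1.15 within batches 1, 2 and 3. By the size of its difference SERHL2 had rank 6 of the 14812 genes, and rank 4 among the most negative. It was the 1 member of 8 with groups that did not overlap, against 8.35% of all genes (3.21% lower and 5.14% higher in shNDRG1 cells). Since the list was chosen with these values known, nothing is read from this count.

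FGFR4, a receptor tyrosine kinase for fibroblast growth factors that is often expressed in HER2-enriched tumours, came next in size. In batches 1, 2 and 3 it measured -0.21, -0.37 and -0.045 in shNDRG1 cells, against 0.20, 0.49 and -0.11 in shGFP control cells. The groups overlapped through batch 3 alone, whose control array was the lowest of its group and lay below the shNDRG1 array of that batch. The log2 difference was -0.40 (standard error 0.17), with -0.41, -0.86 and 0.062 within batches 1, 2 and 3. Without the shNDRG1 or the shGFP control array of batch 3, or without both, the groups did not overlap. Batch 3 is the batch in which FGFR4 was not lower, so this follows from which arrays were left out and nothing is read from it. The difference lay between -0.64 and -0.17 over the 12 alternative settings that could move it.

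The upstream sequences of SERHL2 and FGFR4, the members with the largest differences, and of PIP, the classical apocrine product, are shown so that their composition can be compared. Each runs over 250 bases that end just before a transcript start in RefSeq (GRCh38.p14), on the plus strand. SERHL2 lies at chr22:42553706-42553955, FGFR4 at chr5:177089300-177089549, before the downstream start of its 2 in the table, and PIP at chr7:143131827-143132076. Capitals mark matches to GCCNNNGGC, the AP-2 motif, and to TGTTTAC, a forkhead motif, on either strand.
SERHL2: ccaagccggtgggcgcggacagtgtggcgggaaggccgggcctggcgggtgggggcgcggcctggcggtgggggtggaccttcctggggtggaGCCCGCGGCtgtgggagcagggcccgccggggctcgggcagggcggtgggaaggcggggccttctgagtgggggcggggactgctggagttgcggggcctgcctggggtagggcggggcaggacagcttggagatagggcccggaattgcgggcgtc
FGFR4: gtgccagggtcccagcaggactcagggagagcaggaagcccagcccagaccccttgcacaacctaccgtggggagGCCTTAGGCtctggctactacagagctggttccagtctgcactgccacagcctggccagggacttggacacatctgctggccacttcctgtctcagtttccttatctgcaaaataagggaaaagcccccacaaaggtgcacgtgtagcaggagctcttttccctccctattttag
PIP: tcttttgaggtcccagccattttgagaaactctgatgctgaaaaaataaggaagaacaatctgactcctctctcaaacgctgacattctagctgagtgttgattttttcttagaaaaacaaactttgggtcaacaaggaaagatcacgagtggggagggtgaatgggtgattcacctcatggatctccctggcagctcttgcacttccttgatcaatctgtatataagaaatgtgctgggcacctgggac
The SERHL2 window was 76.8% G and C, the FGFR4 window shown 57.2% and the PIP window 43.6%, against a median of 58% over 35116 windows of RefSeq genes. An AP-2 match lay in the windows shown of SERHL2 and FGFR4, and that of PIP held no match. The window before the other FGFR4 start (chr5:177086665-177086914) was 79.6% G and C and held no match. All 8 measured members had a window, 10 in all since FGFR4 and HPD have 2 starts. AP-2 matches lay in 4 of the 10 (SERHL2, FGFR4, HPD and KMO), against 19.8% of all windows. The forkhead motif lay in 1 of the 10 (KYNU), against 2.98%. A match is a description of letters and does not show binding.

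SERHL, listed in RefSeq as a transcribed pseudogene, is a copy of SERHL2 on the same chromosome, with RRP7A between them. Its probe measured -0.10, -0.030 and -0.062 in the shNDRG1 cells (batches 1, 2 and 3), against 0.43, 0.56 and 0.27 in shGFP control cells. As for SERHL2, no shNDRG1 array reached a control array, but the log2 difference was smaller at -0.48 (standard error 0.08). RRP7BP, a transcribed pseudogene that RefSeq places over the end of SERHL2, was -0.25, -0.084 and 0.084 in shNDRG1 cells, against 0.31, 0.15 and 0.17 in control cells. Its groups did not overlap either, with a log2 difference of -0.29 (standard error 0.10), though in batch 3 it was -0.084. The other measured neighbours had smaller values. RRP7A, a ribosome biogenesis gene between SERHL and SERHL2 that runs over the end of SERHL, had a log2 difference of -0.071 (standard error 0.25), and CYB5R3, the cytochrome b5 reductase gene, of -0.063 (standard error 0.23). The neighbours were chosen after their values were seen. Whether the probes of SERHL2, SERHL and RRP7BP also bind transcripts of one another was not tested, so the part of each in these values is uncertain.

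**Figure D2:**
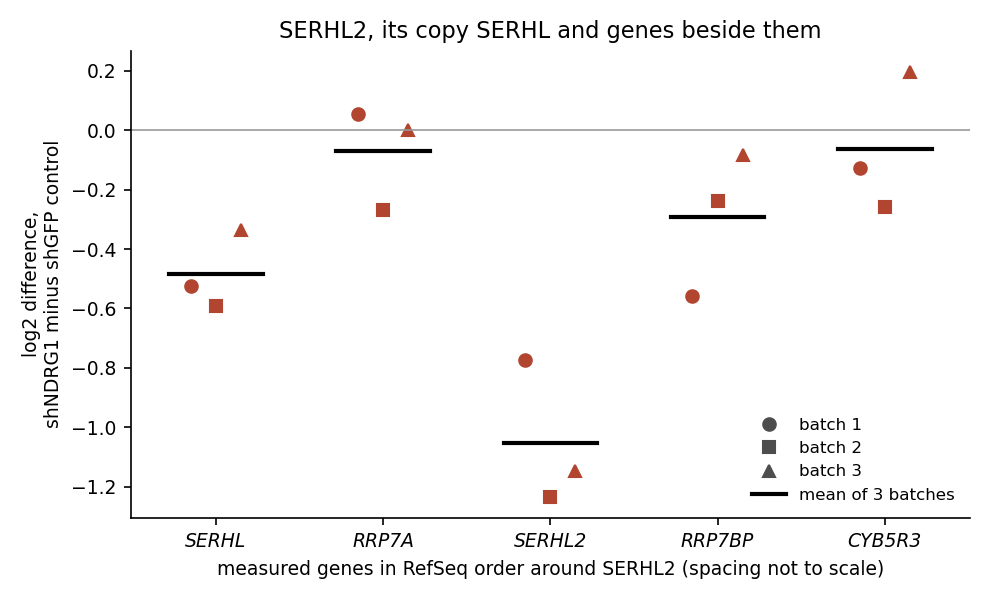
Log2 difference, shNDRG1 minus shGFP control (vertical axis), within each batch (symbols) and as the mean of 3 batches (bars), for SERHL2 and the measured genes beside it in RefSeq order, with spacing not to scale. SERHL2 at -1.05, SERHL at -0.48 and RRP7BP at -0.29 are below 0 in every batch, while RRP7A and CYB5R3 lie on both sides of 0.

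PIP encodes prolactin-induced protein (GCDFP-15), a secreted product of apocrine epithelium used as its histological marker. PIP measured -0.26, 0.20 and 0.28 in the shNDRG1 cells (batches 1, 2 and 3), against -0.0084, 0.0084 and 0.48 in shGFP control cells. The groups overlapped, and the array of batch 3 was the highest in both. The log2 difference was -0.087 (standard error 0.20), with -0.25, 0.19 and -0.20 within the batches, so its sign differed between them. CLCA2, a membrane protein named for calcium-activated chloride conductance and an apocrine marker, was -0.0033, 0.023 and 0.0055 in shNDRG1 cells, against 0.020, -0.029 and -0.035 in control cells. CLCA2 hardly varied, with a range of 0.058 over the 6 arrays, against a median range of 0.33 over all genes. Its log2 difference was 0.023 (standard error 0.043).

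TFAP2B encodes AP-2 beta, a transcription factor of the AP-2 family. It measured 0.22, 0.011 and 0.091 in the shNDRG1 cells (batches 1, 2 and 3), against -0.011, 0.17 and -0.22 in shGFP control cells. The log2 difference was 0.13 (standard error 0.12), and the groups overlapped through the control array of batch 2. Within the batches it was 0.23, -0.16 and 0.31.

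The 3 measured enzymes of amino acid catabolism did not separate the groups. KMO and KYNU act in the kynurenine pathway of tryptophan breakdown, where KMO hydroxylates kynurenine and KYNU, kynureninase, cleaves it and its hydroxylated form. KMO measured 0.24, 0.12 and -0.12 in the shNDRG1 cells (batches 1, 2 and 3), against -0.27, -0.19 and 0.18 in shGFP control cells. It lay above the control in batches 1 and 2 and below it in batch 3, with a log2 difference of 0.17 (standard error 0.15) and 0.50, 0.32 and -0.30 within the batches. KYNU was 0.49, -0.48 and -0.058 in shNDRG1 cells, against 0.41, -0.64 and 0.33 in control cells. The array of batch 2 was the lowest of both groups, and the spread between batches was far wider than the log2 difference of -0.051 (standard error 0.38, or 0.12 with the batch as a block). HPD, 4-hydroxyphenylpyruvate dioxygenase of tyrosine catabolism, was -0.11, -0.024 and 0.032 in shNDRG1 cells, against -0.060, 0.0046 and 0.016 in control cells. Its log2 difference was -0.021 (standard error 0.056).

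**Figure D3:**
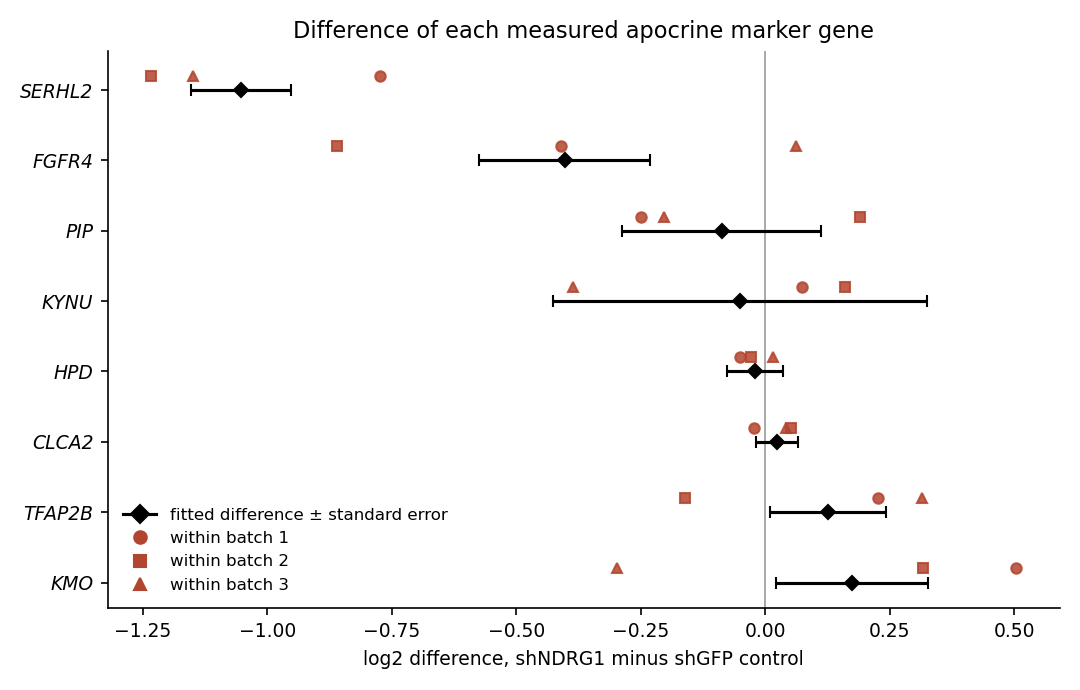
Log2 difference, shNDRG1 minus shGFP control (horizontal axis), of each measured apocrine marker gene, as the limma estimate with its standard error from the fit without the batch (black) and within batches 1, 2 and 3 (symbols). SERHL2 at -1.05 is the member below 0 in all 3 batches, and each of the other 7 has batches on both sides of 0.

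Counted together, 5 of the 8 measured members lay below the control and 3 above it, with a median log2 difference of -0.036, against 0.0070 over all genes, of which 46.4% lay below the control. The median over the members was -0.037 in batch 1, 0.012 in batch 2 and -0.093 in batch 3. For 4 of the 8 members the difference was smaller than 0.1 in size, against 68.2% of all genes. For 7 of the 8 the range of the arrays inside a group exceeded the difference between the groups, and for the same 7 the sign differed between batches. A common sign in all 3 batches was found for 29.7% of all genes. SERHL2 was the 1 member below the control in all 3 batches, against 12.5% of all genes, and 0 members lay above it in all 3, against 17.1%.

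Differences between batches, which the choice of genes did not use, were tested with the group in the model (limma, F test over the 3 batches, chosen after the values were seen). None of the 8 members passed an adjusted p of 0.05, and 0% of all genes did. At an unadjusted p under 0.05 there were 2 members, KYNU and PIP, against 27.2% of all genes. KYNU was -0.86 on the log2 scale in batch 2 relative to the other batches (adjusted p = 0.0837 from limma), with the batch 2 array lowest in both groups. PIP was -0.37 in batch 1 and 0.39 in batch 3 relative to the other batches (adjusted p = 0.157 from limma). SERHL2 differed little between batches, with -0.037, 0.092 and -0.055 for batches 1, 2 and 3 relative to the others.

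Outside the members, the 5 genes with values nearest to those of SERHL2 were NDRG1, EPHB6, SRARP, PLEK2 and SYNPO. Likeness was the root mean square difference over the 6 arrays after each gene was centred on its own mean. It was 0.13 for NDRG1, the shRNA target, and 0.21 for EPHB6, an ephrin receptor without kinase activity. SRARP stood at 0.22, as did the pleckstrin family gene PLEK2 and the actin-associated synaptopodin gene SYNPO. SRARP measured -0.30, -0.22 and -0.46 in the shNDRG1 cells (batches 1, 2 and 3), against 0.74, 0.68 and 0.27 in shGFP control cells. Its groups did not overlap, and its log2 difference was -0.89 (standard error 0.15). These 5 genes were picked for likeness to a gene that separates the groups, so their own separation follows from the choice.

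**Figure D4:**
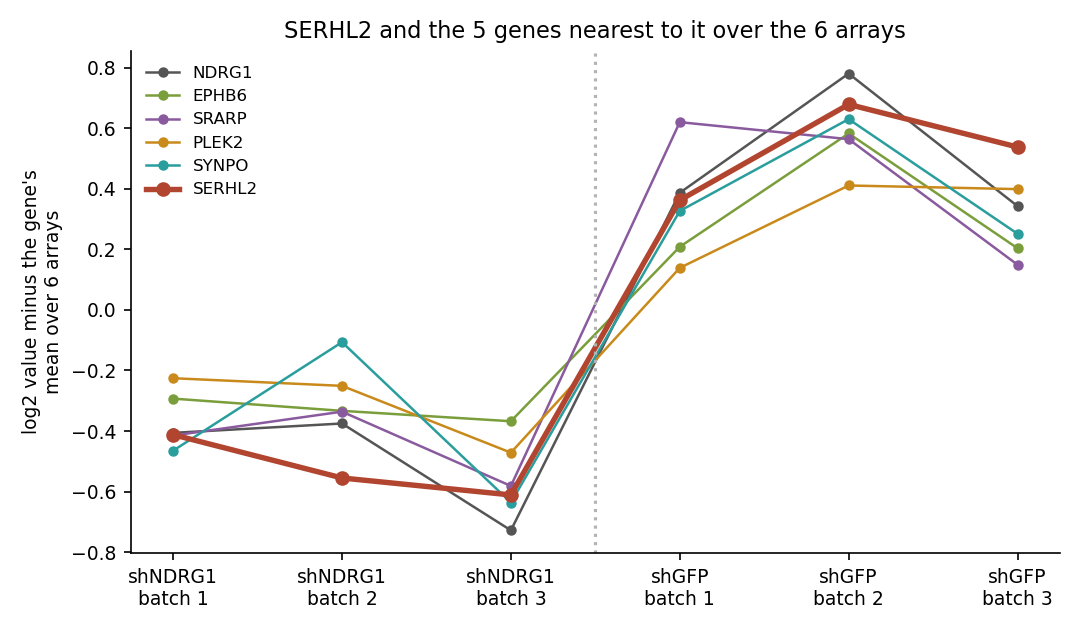
Log2 value minus the gene's mean over the 6 arrays (vertical axis) for SERHL2 (thick line) and the 5 genes nearest to it, on shNDRG1 arrays and then shGFP control arrays of batches 1, 2 and 3. Lines join the arrays of a gene only to guide the eye, and all 6 genes lie below their mean on every shNDRG1 array.

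Other genes of the apocrine program were listed with earlier results of these data known. Of 24 such genes, 14 were measured. Of the 14, 11 lay below the control and 3 above it, with a median log2 difference of -0.12. At an unadjusted p under 0.05 in limma, 4 were lower and 0 higher, with or without the batch as a block, against 1.57% lower and 2.69% higher among all genes (3.74% and 5.7% with the block). The 4 were FOXA1, SPDEF, XBP1 and DHRS2, and 3 of them are transcription factors. As the list was made with such results known, nothing is read from these counts.

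FOXA1 measured -0.13, -0.081 and -0.011 in the shNDRG1 cells (batches 1, 2 and 3), against 0.58, 0.45 and 0.41 in shGFP control cells, a log2 difference of -0.56 (standard error 0.07). The ETS factor SPDEF was -0.31, -0.050 and -0.20 in shNDRG1 cells, against 0.29, 0.69 and 0.095 in control cells, a log2 difference of -0.54 (standard error 0.17). XBP1, a factor of the secretory and unfolded protein response, was 0.048, -0.29 and -0.048 in shNDRG1 cells, against 0.33, 0.29 and 0.26 in control cells, a log2 difference of -0.39 (standard error 0.09). For none of the 3 did the groups overlap, and the same held for the dehydrogenase gene DHRS2, with a log2 difference of -0.26 (standard error 0.08). None of the other 10 had an unadjusted p under 0.05, and their log2 differences lay between -0.18 for the prolactin receptor gene PRLR (standard error 0.53) and 0.29 for the adhesion molecule gene ALCAM (standard error 0.30). The melanophilin gene MLPH had a log2 difference of 0.059 (standard error 0.16), the secretory chaperone gene AGR2 of 0.034 (standard error 0.16), the prostaglandin dehydrogenase gene HPGD of -0.043 (standard error 0.059) and the receptor gene ERBB3 of -0.061 (standard error 0.11).

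Of 6 other secreted products measured, none had an unadjusted p under 0.05 without the block. MUCL1 and APOD among them were also counted in the 14 program genes. LTF, the lactotransferrin gene, was the 1 with groups that did not overlap, lower in shNDRG1 cells, as in 3.21% of all genes. Its log2 difference was -0.094 (standard error 0.046). LCN2, the lipocalin gene, was higher with it, at a log2 difference of 0.35 (standard error 0.24 without the block). The mucin-like gene MUCL1 had a log2 difference of -0.16 (standard error 0.16).

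In the 8 pathway and family lists of the single members, 4 of 47 other genes measured had an unadjusted p under 0.05 (8.51%), against 4.26% of all genes. With the batch as a block 7 did (14.9%), against 9.45%. These lists were chosen with earlier results of these data known, and SERHL, the copy of SERHL2, is among the 4. Nothing is therefore read from these shares. Of 6 other genes of the kynurenine pathway and NAD synthesis, 1 was higher at an unadjusted p under 0.05. This was QPRT, which turns quinolinate into a precursor of NAD. QPRT had a log2 difference of 0.48 (standard error 0.16), with 0.26, 0.34 and 0.85 within batches 1, 2 and 3. AFMID, which forms kynurenine, had -0.13 (standard error 0.08). Of 5 other genes of phenylalanine and tyrosine catabolism, 1 was lower, PCBD1, a pterin dehydratase gene, at -0.21 (standard error 0.08), and with the batch as a block HPDL, a homologue of HPD, was higher, at 0.29. The groups did not overlap for PCBD1 and QDPR, 2 of the 5, both lower in shNDRG1 cells, as in 3.21% of all genes. QDPR, a pterin reductase gene, had a log2 difference of -0.085 (standard error 0.062). TAT, which supplies the substrate of HPD, had a log2 difference of 0.0010 (standard error 0.046).

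Among 9 other FGF receptor genes and partners, none had an unadjusted p under 0.05, and the largest difference was 0.10 in size. FGFR1, FGFR2 and FGFR3 had log2 differences of 0.026, 0.10 and 0.031 (standard errors 0.041, 0.049 and 0.13), against -0.40 for FGFR4. The groups of FGFR2 did not overlap, with shNDRG1 cells higher, as in 5.14% of all genes. Among 5 other AP-2 genes and partners, none had an unadjusted p under 0.05 either. TFAP2C, the AP-2 gamma gene of luminal and HER2 cells, had a log2 difference of 0.031 (standard error 0.12). CLCA1 and CLCA4, neighbours of CLCA2 in its family, had 0.017 and 0.032 (standard errors 0.042 and 0.041). The groups did not overlap for CLCA4 or for BEST1, a gene listed with it, both higher in shNDRG1 cells, as in 5.14% of all genes. These were 2 of the 4 other genes measured in that list. BEST1 had a log2 difference of 0.095 (standard error 0.053). Neither had an unadjusted p under 0.05, and nothing is read from this count. In the lipoxygenase pathway of the unmeasured ALOX15B, 8 genes were measured and none had an unadjusted p under 0.05 without the block. LTA4H, the leukotriene A4 hydrolase gene, was higher with it, with a log2 difference of 0.21. The related lipoxygenase genes ALOX15, ALOX12 and ALOX5 had log2 differences of 0.053, 0.022 and 0.082 (standard errors 0.11, 0.083 and 0.057). Of 13 other glucuronosyltransferase genes and their suppliers, only 3 were measured, none of the UGT2B subfamily of UGT2B28. UGT8, a galactosyltransferase of sphingolipid synthesis, was lower at an unadjusted p under 0.05, with a log2 difference of -0.54 (standard error 0.21), and its groups overlapped. Of 7 other hydrolase genes beside SERHL2, SERHL was lower at an unadjusted p under 0.05 and none was higher. MEST, a hydrolase gene of the same fold, joined SERHL with the batch as a block. Its log2 difference was -0.18 (standard error 0.18 without the block).

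**Figure D5:**
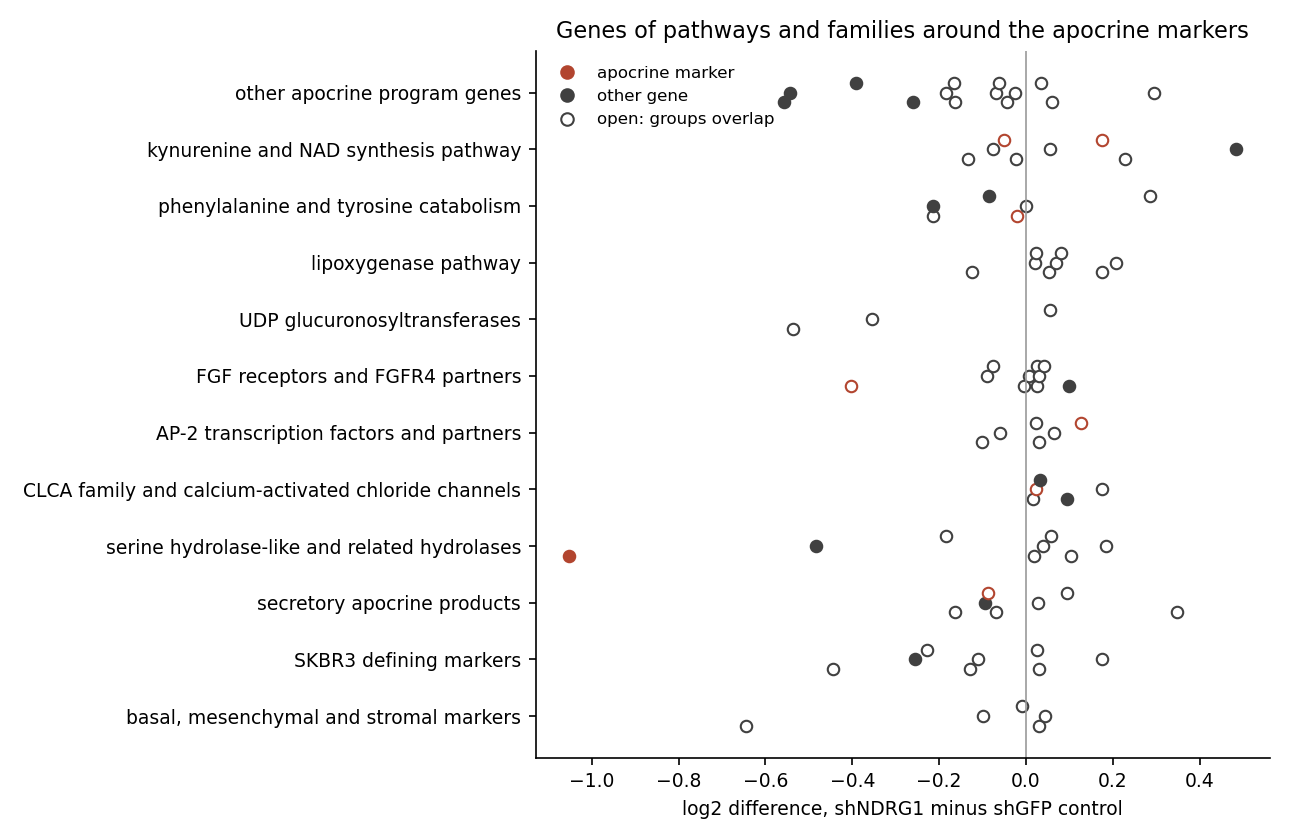
Log2 difference, shNDRG1 minus shGFP control (horizontal axis), of each measured gene in 12 lists around the apocrine markers, where red marks the 8 members, grey other genes and filled symbols genes with groups that do not overlap. SERHL2 at -1.05 lies lowest, and FOXA1, SPDEF, XBP1 and DHRS2 are the filled symbols of the first list, at -0.56, -0.54, -0.39 and -0.26.

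Markers of the line itself are given beside these values. Of 10 epithelial and HER2 amplicon markers of SKBR3 cells, 8 were measured, ERBB2 not among them, and their mean per array ranged from -0.14 to 0.014 in shNDRG1 cells and from -0.042 to 0.20 in shGFP control cells. The adaptor gene GRB7 had a log2 difference of -0.44 (standard error 0.18) and the keratin gene KRT18 of -0.26 (standard error 0.10), both with an unadjusted p under 0.05, which KRT18 lost with the batch as a block. The other genes of the HER2 amplicon, PGAP3 and STARD3, had log2 differences of 0.18 (standard error 0.16) and 0.025 (standard error 0.098), and PGAP3 was higher at an unadjusted p under 0.05 with the block. Of 13 basal, mesenchymal and stromal markers, 5 were measured, with a mean per array from -0.20 to -0.0089 in shNDRG1 cells and from -0.071 to 0.15 in control cells. None had an unadjusted p under 0.05 without the block, and 1 was lower with it. This was the fibronectin gene FN1, which had a log2 difference of -0.65 (standard error 0.35 without the block). VIM, the vimentin gene, had a log2 difference of -0.0090 (standard error 0.073). The part of these markers in the values of SERHL2 and FOXA1 was not tested.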

How the data were processed

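RNA from 6 SKBR3 cultures was hybridized to Affymetrix Gene 2.0 ST arrays. The authors checked the arrays in Affymetrix Expression Console, summarized and quantile normalized them with PLIER in GeneSpring and subtracted a baseline, with the control median stated as baseline, and deposited the result, which is taken to be on a log2 scale. The control median was 0 (within 0.00001) in 0.338% of probes and the median of all 6 arrays in 26.8%, so the baseline used is uncertain, and differences do not depend on it. Of 44629 probes, 15835 had 1 gene symbol, and probes of a gene were averaged (14812 genes). Every member had 1 probe. No filter on dim probes was possible, as no level remains.

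All 6 arrays entered 1 limma fit (version 3.58.1, R 4.3.3) with no covariate. The fit was also tried on simulated data, and the outcome is not reported here. Benjamini-Hochberg adjustment covered all 14812 genes, at a threshold of 0.05. Differences are shNDRG1 minus shGFP control, with moderated standard errors from the fit with no covariate unless stated. The batch as a block left the differences as they were but moved the standard errors. They were lower with it for NDRG1 (0.088), PIP (0.11), TFAP2B (0.11), HPD (0.049) and KYNU (0.12). For SERHL2 (0.11), CLCA2 (0.049), FGFR4 (0.19) and KMO (0.17) they were higher. The labels pair an array of each group by batch number. Arrays of a batch deviated together from their group means (r over genes 0.785, 0.833 and 0.163 in batches 1, 2 and 3), and blocking on batch was therefore the first alternative. Others were the label day (shared by batches 2 and 3) as a block, other normalizations, the probe of largest range, array weights, another variance model and leaving out arrays. The members and the 12 gene lists were chosen with earlier results of these data known. The genes named are the members, NDRG1, FOXA1, family and pathway neighbours of members, up to 3 genes of largest difference per list among those with no overlap, and the 5 genes nearest to SERHL2. Others were chosen after their values were seen. Sequences are from RefSeq, build GRCh38.p14, and figures were drawn with matplotlib 3.10.9.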

Additional observations from a re-analysis of the deposited data

How the results depend on the processing

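With 3 arrays per group the number of arrays limits the precision, and all values rest on 1 shRNA. Of 16 alternatives, 12 could move a member's difference. The log2 difference lay between -1.19 and -0.96 for SERHL2, -0.64 and -0.17 for FGFR4, 0.0088 and 0.047 for CLCA2 and 0.025 and 0.27 for TFAP2B, with no change of sign. It lay between -0.23 and 0.078 for PIP, -0.054 and 0.039 for HPD, -0.39 and 0.18 for KYNU and -0.0075 and 0.41 for KMO, and the sign turned in 3, 2, 4 and 1 of the 12.

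When arrays or batches were left out, the median of the measured members ranged from -0.087 to 0.023, being above 0 without the shNDRG1 array of batch 1 (0.023) or the shGFP control array of batch 3 (0.019). The number of members below the control then ranged from 3 to 5, and that of members with no overlap from 1 to 3. The added members were FGFR4 without either array of batch 3 and KMO without the control array of batch 3. TFAP2B was added without the control array of batch 2, and CLCA2 without the control array of batch 1. Groups of fewer arrays separate more easily, and the share of all genes with no overlap is not given for these settings. Nothing is therefore read from the added members.

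At an unadjusted p under 0.05 in limma, 399 genes were higher and 232 lower, from 146 to 566 and from 120 to 471 when arrays or batches were left out. The shifts over 1.5 times came without batch 1 (120 lower), batch 2 (471 lower), batch 3 (146 higher, 145 lower), the shGFP control array of batch 2 (465 lower), or the shNDRG1 array of batch 2 (251 higher) or 3 (236 higher). The replicate block gave 845 and 554, and array weights 1753 and 1186. At an adjusted p under 0.05 none passed except with array weights, which called 5, namely CEP85, VLDLR, FAM30A and CCL28, higher, and SERHL2, lower. No call is read for SERHL2, which was chosen on this contrast. Since each batch holds 1 array of each group, the block could not change the counts of members below the control or with no overlap. The cause of these shifts was not tested.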
